A study of Rattus norvegicus with 4 samples.

Results

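The miRNAs described here are the rat miRNAs on the array whose registry number is 3000 or higher. They were chosen by name alone (rno-miR- and a number of at least 3000, with or without a letter or an arm), and 102 of the 727 miRNAs on the array met the rule. The other 625, let-7 included, are called the rest. The miRNAs came from fracture callus, the repair tissue of a broken bone, of 12-week-old male Sprague-Dawley rats with a closed transverse fracture of the femoral shaft held by a wire. The diabetic rats had received 1 intravenous injection of 40 mg/kg streptozotocin, which kills the pancreatic beta cells, and had a blood glucose above 300 mg/dl, and the control rats had received sodium chloride and had normal blood glucose. The 4 groups were diabetic day 11, control day 11, diabetic day 5 and control day 5 after the fracture. Each group was 1 pool of tissue from 5 animals on 1 array, so no difference has a replicate check or a p-value.

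miRNAs are short RNAs cut from hairpin precursors, and either side of the hairpin, the 5p or the 3p arm, can be loaded into an Argonaute protein. Bases 2 to 8 of the loaded arm, the seed, pair with target mRNAs. Registry numbers follow the order of registration, so that high numbers were given late, when sequencing had replaced cloning as the source of new entries. Many late entries are therefore scarce, restricted to few tissues or taken from the strand opposite a hairpin registered earlier.

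Levels are blank-corrected intensities: each spot less the average blank spot of its array, after which every array was scaled to a median of 100 over the 400 miRNAs that all 4 arrays detected. An intensity depends on the probe as well as on the amount of miRNA, so levels of different miRNAs do not compare their amounts. Rankings by level order probes, and summed levels of markers give more weight to bright probes. A miRNA counted as detected where it exceeded the mean of the blank spots by more than 2 of their SDs, a limit that was 11.9 on the diabetic day 11 array, 11.5 on the control day 11 array, 11.2 on the diabetic day 5 array and 10.02 on the control day 5 array. Log2 differences carry a technical error (±) made from the spread of the spike control and blank spots. Variation among animals, pools and hybridisations is not part of it.

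The sequences below are the mature miRNAs on which the results turn, with the seed in capitals, read 5′ to 3′ from RefSeq (build GRCr8). Those of miR-3473, miR-6332 and miR-3573-3p belong to the brightest probes, and the others to miRNAs that differed at least 2-fold between diabetic and control callus.
miR-3473: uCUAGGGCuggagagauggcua
miR-6332: cGCAGGGAcugcaaggagccgca
miR-3573-3p: uUCCUAACucugcccccucccau
miR-6216: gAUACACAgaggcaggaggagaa
miR-6324: uCAGUAGGccagacagcaagcac
miR-6322: uGUCUGUAccacauggcacggu
miR-3594-5p: cCCAGGGCagagcagugugaa
miR-3594-3p: cACACCGCcucugcccgcuagu
miR-3075: uGUCUGGGagcagccaaggacaag
miR-3564: uGGGAAAUgcaaagagggaag
miR-6317: gUGAACCUgagagaaaggcuc
miR-3102: cUCUACUCccugccccagcca
None of these 12 shared its seed with another miRNA of the array that had a sequence.

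The late-numbered miRNAs were detected less often than the rest on every array. On the diabetic day 11 array 53 of 102 (52.0%) were detected, against 429 of the 625 other miRNAs (68.6%). The counts were 57 of 102 (55.9%) against 444 (71.0%) on the control day 11 array, 67 of 102 (65.7%) against 493 (78.9%) on the diabetic day 5 array, and 56 of 102 (54.9%) against 448 (71.7%) on the control day 5 array. Of the 102, 41 (40.2%) were detected on all 4 arrays and 21 (20.6%) on none, against 57.4% and 10.7% of the rest. Another 9 were detected on 3 arrays, 11 on 2 arrays and 20 on 1 array. Of these 20, 3 were seen only in diabetic day 11 callus, 1 only in control day 11 callus, 11 only in diabetic day 5 callus and 5 only in control day 5 callus. Of all 727 miRNAs, 101 were detected on 1 array, and the counts were 16, 18, 50 and 17 in the same order. The lead of the diabetic day 5 array is thus shared by the whole array set.

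**Figure D1:**
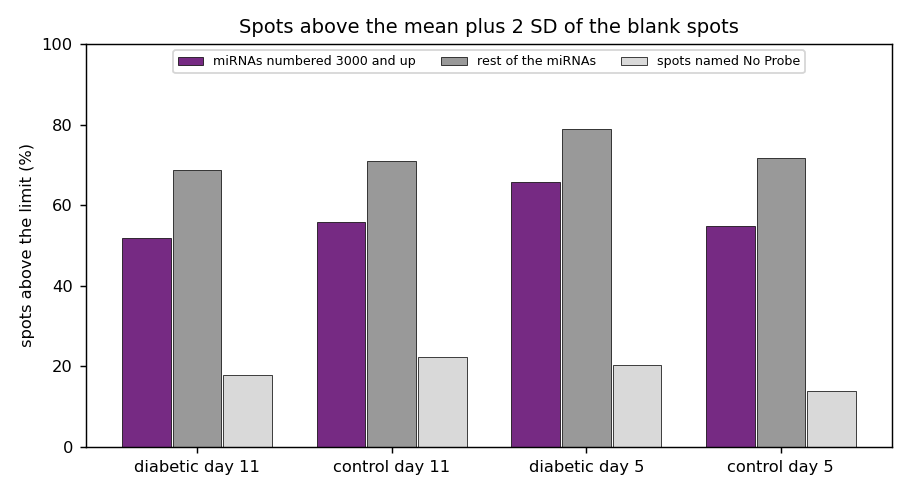
Share of spots above the detection limit (%, bars from 0) on each of the 4 arrays, for the 102 miRNAs numbered 3000 and up, the 625 other miRNAs and the 675 spots named No Probe. On every array the late-numbered miRNAs stand between the other 2 sets, at 52.0 to 65.7%.

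The detection limit was also exceeded by spots that are not named for a miRNA. The arrays carry 675 spots named No Probe, and what these hold is not given in the sources used here. Of them, 121 (17.9%) on the diabetic day 11 array, 150 (22.2%) on the control day 11 array, 138 (20.4%) on the diabetic day 5 array and 93 (13.8%) on the control day 5 array were above the limit. Against the 95th percentile of these spots, 44, 46, 52 and 47 of the 102 remained above it on the 4 arrays in the same order. Near the limit the values were close together: the 4 members just above it spanned 12.0 to 13.1 and the 4 just below it 11.2 to 11.6 on the diabetic day 11 array.

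Detection differed between ranges of numbers and with base composition. All 12 miRNAs numbered 3065 to 3473 were detected on at least 1 array, 10 of them on all 4. Of the 66 numbered 3541 to 3596, 21 were detected on all 4 and 11 on none, and of the 23 numbered 6215 to 6334, 10 and 9. The only higher number, miR-7578, was detected on none. Of the 102, 92 had a RefSeq sequence. The median share of G and C was 54.8% in the 38 of these detected on all 4 arrays and 47.7% in the 18 detected on none. Among the members with at least 60% G and C, 13 of 18 were detected on all 4 arrays, and among those under 45%, 2 of 26. The rest showed the same order, with 65 of 74 and 98 of 206. A probe's base composition and the abundance of its miRNA cannot be told apart here.

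Sequence also divided the set by origin. Of the 92 with a sequence, 32 were mirror miRNAs: at least 15 consecutive bases were complementary to a miRNA of lower number on the array (the runs found had 16 to 22 bases), and in each case RefSeq places the pair at the same locus on opposite strands. The pairs below were chosen to show the families involved. The search covered the 561 of the 625 other miRNAs whose name on the array has a RefSeq sequence, so pairs with the remaining ones would be missed. Capitals mark the complementary stretch.
miR-3557-3p: ACACAGGACCUGGAGUCAGGAG
miR-378a-5p: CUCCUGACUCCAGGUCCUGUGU
miR-3065-3p: UCAGCACCAGGAUAUUGUUgggga
miR-338-5p: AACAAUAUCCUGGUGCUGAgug
miR-3587: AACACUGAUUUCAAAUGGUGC
miR-29b-3p: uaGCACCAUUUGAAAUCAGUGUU
miR-3556b: ACCGAUUUCAAAUGGUGCUA
miR-29c-3p: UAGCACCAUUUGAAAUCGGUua
miR-3571: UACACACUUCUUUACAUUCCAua
miR-1-3p: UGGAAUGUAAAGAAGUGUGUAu
miR-3596a: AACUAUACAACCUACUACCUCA
let-7a-5p: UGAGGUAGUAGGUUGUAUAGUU
Among the other partners are let-7d-5p, let-7e-5p and let-7f-5p of miR-3596b, miR-3596c and miR-3596d, miR-125b-5p of miR-3588, miR-210-3p of miR-3574 and miR-24-1-5p of miR-3074. Only 7 of the 32 mirror miRNAs (21.9%) were detected on all 4 arrays, against 31 of the 60 other members with a sequence (51.7%). The 2 sets also differed in G and C, with medians of 45.2% in the mirror miRNAs and 52.4% in the 60. Under 45%, 1 of 15 mirror miRNAs and 1 of 11 others were detected on all 4 arrays. At 60% or more the counts were 0 of 2 and 13 of 16. The part of base composition in this contrast was not tested. Of their partners, 22 of 32 were detected on all 4. The 60 include miR-3549, which lies opposite the Mir193 hairpin. RefSeq names the arms of that hairpin differently from the array, so they were not compared with miR-3549.

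**Figure D2:**
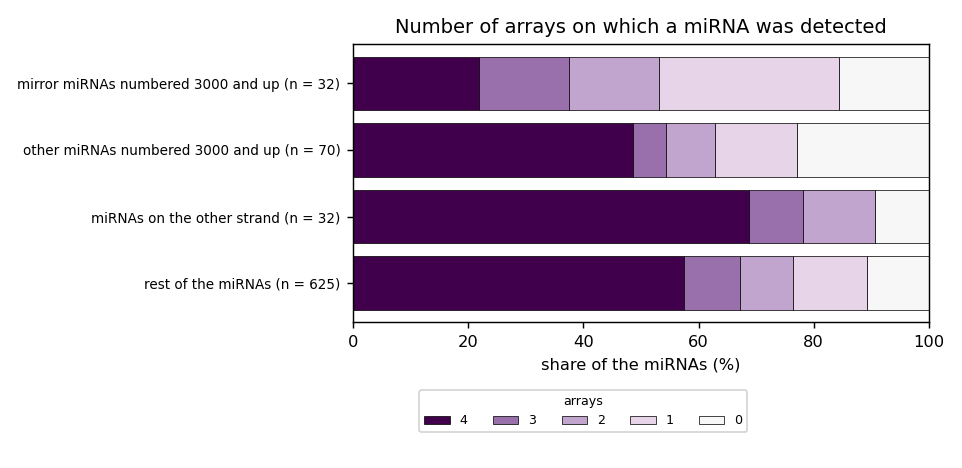
Share of miRNAs (%, horizontal) detected on 4, 3, 2, 1 or 0 arrays, for the 32 mirror miRNAs, the 70 other miRNAs numbered 3000 and up, the 32 miRNAs on the other strand and the rest. The mirror miRNAs have the smallest share on all 4 arrays, 21.9%, and 31.3% of them were detected on 1 array.

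Several mirror miRNAs had low levels where they were detected. miR-3596a, opposite the differentiation-linked let-7a, had 22.6 in diabetic day 11 callus and was not detected on the other arrays. miR-3571, opposite the muscle miRNA miR-1, was detected everywhere at 13.1 in diabetic day 11, 15.5 in control day 11, 13.2 in diabetic day 5 and 16.7 in control day 5 callus. Its values differed by no more than its technical error. The probe of miR-1-3p differed between day 11 and day 5 by -1.78 ± 0.12 in diabetic and -1.62 ± 0.10 in control callus on the log2 scale. miR-3120, which lies inside Dnm3 opposite the Mir214 hairpin of the skeletal mesenchyme, had 50.3 in diabetic day 11, 61.9 in control day 11, 70.0 in diabetic day 5 and 65.0 in control day 5 callus. The longest stretch it shares with the complement of a miR-214 arm was 5 bases, so it is not among the 32.

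The probe with the highest mean level was that of miR-3473. It lies on chr13:42051730-42051751, plus strand, in the span of Zranb3, a DNA repair gene, on the strand opposite to that gene. Its level was 3773 in diabetic day 11, 5653 in control day 11, 4524 in diabetic day 5 and 5505 in control day 5 callus. Both diabetic pools were below both control pools, with log2 differences of -0.58 ± 0.11 on day 11 and -0.28 ± 0.11 on day 5, and neither reached 2-fold. Here and below, pools that stand together in this way differ in day or in diabetes and are not replicates. The share of all miRNAs with such an order is not given here, so the order alone does not set a member apart. A run of 16 bases of this miRNA, written as DNA ggctggagagatggct, occurs on either strand in 92 of 33469 RefSeq promoter windows (250 bases before to 50 after a gene's start), or 0.275%. For the other members the highest such number was 3 promoters, and for 85 of them it was 0. The letters resemble, as background, the start of a short interspersed repeat of rodents (B2). Whether other RNA with this stretch binds the probe was not tested.

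The next 7 probes by mean level were those of miR-3072, miR-6332, miR-3573-3p, miR-3068-3p, miR-6216, miR-3584-5p and miR-3593-3p. miR-3072 had 1705 in diabetic day 11, 1512 in control day 11, 1982 in diabetic day 5 and 1873 in control day 5 callus, with the day 11 pools lower than the day 5 pools. miR-3573-3p, in the span of Efnb1 (ephrin-B1, a membrane ligand), had 1165, 1032, 1070 and 1147 on the same arrays in that order. miR-3068-3p, in the span of Alkbh1 (a nucleic acid demethylase), had 789, 753, 831 and 955. RefSeq lists both arms of miR-3068 under the gene symbol Snora58, and whether other RNA of that locus binds the probes was not tested. miR-3584-5p, in the span of Itprip, had 769, 746, 748 and 635.1. These last 3 and miR-3074 (47.4 in diabetic day 11, 42.2 in control day 11, 42.3 in diabetic day 5 and 43.9 in control day 5 callus) had the narrowest ranges over the 4 arrays. The highest level was 1.13 times the lowest for miR-3573-3p, 1.27 for miR-3068-3p, 1.21 for miR-3584-5p and 1.12 for miR-3074.

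Over the 41 miRNAs detected on all 4 arrays, the median of this range was 1.90-fold. It was under 1.5-fold for 14 and at least 2-fold for 18. The widest ranges belonged to miR-3564 (4.93-fold), miR-3546 (4.04-fold), miR-6322 (4.02-fold) and miR-3065-3p (3.85-fold), whose levels were mostly under 100.

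**Figure D3:**
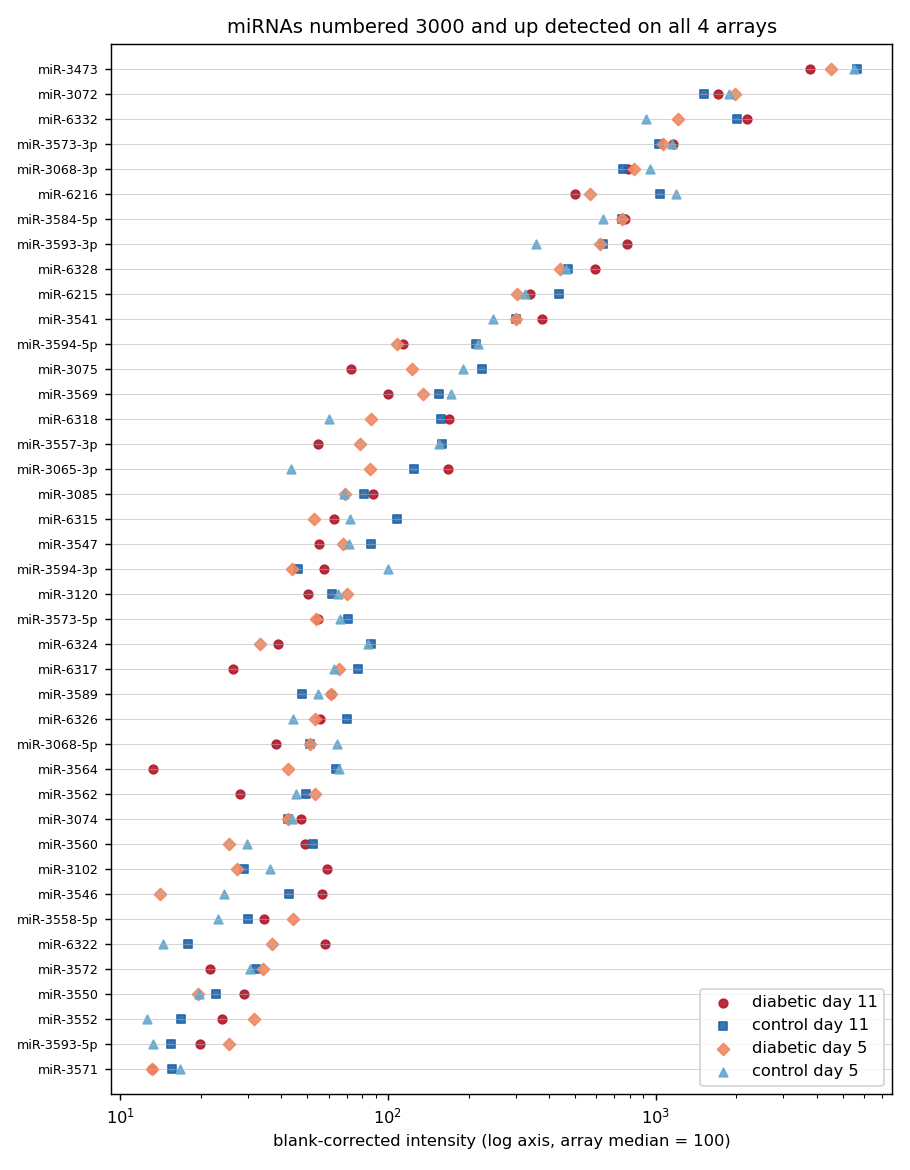
Blank-corrected intensity (log axis, array median of 100) of the 41 late-numbered miRNAs detected on all 4 arrays, 1 point per array, ordered by mean. miR-6216, miR-6324 and miR-3594-5p show both diabetic points left of both control points, and miR-3573-3p and miR-3074 show 4 nearly coinciding points.

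In diabetic against control callus on day 11, 46 of the 102 were detected on both arrays. Of these, 2 were at least 2-fold higher and 6 at least 2-fold lower in diabetic callus, where 3.93% of all miRNAs detected on both arrays were higher and 4.85% lower. The share of members that were lower, 13.0%, was above that of all miRNAs, and rests on 6 miRNAs. The median technical error was also larger, 0.25 for the members against 0.18 over all, and its part in this share was not tested. With the local background 3 of the 6 stayed at least 2-fold lower, and 8 of 21 over all miRNAs. The median log2 difference of the 46 was 0.06, against 0.03 over all. The largest of these differences was that of miR-3564, which had 13.3 in diabetic day 11, 63.9 in control day 11, 42.3 in diabetic day 5 and 65.5 in control day 5 callus, and so stood just above the limit in the diabetic day 11 pool (log2 difference -2.27 ± 0.67).

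miR-3075, in the span of Zmiz1 (a transcriptional co-regulator), had 72.7 in diabetic day 11, 225 in control day 11, 123 in diabetic day 5 and 191 in control day 5 callus. It was 3.09-fold lower in diabetic callus on day 11 (log2 -1.63 ± 0.16) and lower by less than 2-fold on day 5 (-0.63 ± 0.13). miR-3557-3p, opposite the hairpin of the metabolic miRNA miR-378a in Ppargc1b, had 54.8 in diabetic day 11, 159 in control day 11, 78.9 in diabetic day 5 and 155 in control day 5 callus. Both diabetic pools were below both control pools, at -1.53 ± 0.20 on day 11 and -0.97 ± 0.16 on day 5. Its mirror partner miR-378a-5p was not lower: 95.3 in diabetic day 11, 68.7 in control day 11, 113 in diabetic day 5 and 99.9 in control day 5 callus.

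miR-6216, which lies on chr3:65165595-65165617, minus strand, in no protein-coding gene span of RefSeq, was the brightest of the lower ones. It had 500.0 in diabetic day 11, 1043 in control day 11, 570.2 in diabetic day 5 and 1191 in control day 5 callus. Both diabetic pools were below both control pools, and the log2 difference was -1.06 ± 0.11 on both days. miR-6324, in the span of Brwd1, showed the same order at lower levels: 38.7 in diabetic day 11, 86.2 in control day 11, 33.2 in diabetic day 5 and 84.1 in control day 5 callus. Its log2 differences were -1.16 ± 0.26 on day 11 and -1.34 ± 0.28 on day 5. miR-6317, in the span of Aldh18a1, was low in 1 pool only, with 26.5 in diabetic day 11, 77.0 in control day 11, 65.4 in diabetic day 5 and 62.7 in control day 5 callus.

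The 2 miRNAs at least 2-fold higher in diabetic callus on day 11 were miR-6322 and miR-3102. miR-6322 had 58.0 in diabetic day 11, 18.0 in control day 11, 36.8 in diabetic day 5 and 14.4 in control day 5 callus. Both diabetic pools were above both control pools, by log2 1.69 ± 0.50 on day 11 and 1.35 ± 0.56 on day 5, with the control values near the detection limit. miR-3102, in the span of Arhgef17, had 59.1 in diabetic day 11, against 29.0 in control day 11, 27.3 in diabetic day 5 and 36.1 in control day 5 callus. Only the diabetic day 11 pool stood out, by log2 1.03 ± 0.34 over the control pool of that day.

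On day 11, some miRNAs were detected on 1 of the 2 arrays, and their folds are bounds against the lowest detected signal or the miRNA's own signal on the other array. Of all miRNAs detected on 1 of these 2 arrays, 7.69% had a bound of at least 2-fold higher and 8.55% of at least 2-fold lower. miR-3587, the mirror of miR-29b-3p, had 117 in diabetic day 11 callus and was not detected in the other 3 pools, which makes it at least 10.2-fold higher on day 11. The uncorrected spot of miR-3587 was nearly the same on all arrays: 130.5 on the diabetic day 11 array, 126.6 on the control day 11 array, 125.2 on the diabetic day 5 array and 124.8 on the control day 5 array. The blank mean was 73.4, 141, 117 and 120.0 on these arrays, and the diabetic day 11 array was scaled up by a factor of 2.05. The local background of the spot was 55.2, 88.3, 100.6 and 73.8 in the same order. The part of the blank level and the scaling in this bound was not tested. In the other direction miR-3588 had a bound of at least 3.64-fold lower, miR-3556b and miR-3561-3p each at least 2.54-fold and miR-3549 at least 2.11-fold, with control day 11 levels of 25.2 to 43.5.

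On day 5, 49 of the 102 were detected on both arrays, with 2 at least 2-fold higher and 4 at least 2-fold lower in diabetic callus. Over all miRNAs detected on both arrays 4.27% were higher and 2.56% lower. The median log2 difference of the 49 was -0.07, against 0.04 over all. The balance depended on the processing. The authors' deposited values gave 6 higher and 1 lower with a median of 0.23, against 0.34 over all. The local background gave 0 higher and 0 lower. miR-6322 (above) and miR-3552, which lies in the span of the serotonin receptor gene Htr2c, were higher. miR-3552 had 24.0 in diabetic day 11, 16.9 in control day 11, 31.6 in diabetic day 5 and 12.6 in control day 5 callus, all within 3-fold of the limit. The 4 lower ones were miR-6216 and miR-6324 (above) and both arms of miR-3594.

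The hairpin of miR-3594 lies in the span of Cep131, a centrosomal gene, on its strand (5p arm chr10:105845867-105845887, minus strand). The 5p arm had 114 in diabetic day 11, 214 in control day 11, 108 in diabetic day 5 and 217 in control day 5 callus, so both diabetic pools were below both control pools (log2 -0.91 ± 0.14 on day 11 and -1.01 ± 0.14 on day 5). The 3p arm had 57.7 in diabetic day 11, 46.0 in control day 11, 43.6 in diabetic day 5 and 100.1 in control day 5 callus. Only the control day 5 pool was high for the 3p arm, so that its difference was -1.20 ± 0.23 on day 5 and 0.33 ± 0.26 on day 11. miR-3562, in the same gene span and on the same strand, had 28.1 in diabetic day 11, 49.5 in control day 11, 53.5 in diabetic day 5 and 45.3 in control day 5 callus.

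Bounds of at least 2-fold on day 5 all ran toward diabetic callus: miR-3574 at least 2.59-fold, miR-3584-3p at least 2.40-fold, miR-6331 at least 2.23-fold and miR-3580-3p at least 2.12-fold higher. Over all miRNAs detected on 1 of these arrays, 18.8% had such a bound in this direction and 3.91% in the other. Their diabetic day 5 levels were 21.7 to 26.5, about 2 times the limit. The diabetic day 5 array had the most miRNAs detected of all 4, members and rest alike.

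Set against each other, the 2 diabetic differences share no array. Among the 41 miRNAs detected on all 4 arrays, 28 had the same sign on both days, 13 higher and 15 lower in diabetic callus, and Pearson's r was 0.57 (Spearman's rho 0.52). Among the 359 others detected on all 4, 196 had the same sign and r was 0.09 (rho 0.11). With levels of at least 50 only, r was 0.60 over 28 members and 0.09 over 258 others. miRNAs are not independent replicates, each point shares its array with all others, and whether the members differ from the rest in this was not tested. With local background correction r was 0.35 for the members and 20 of 41 had the same sign.

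**Figure D4:**
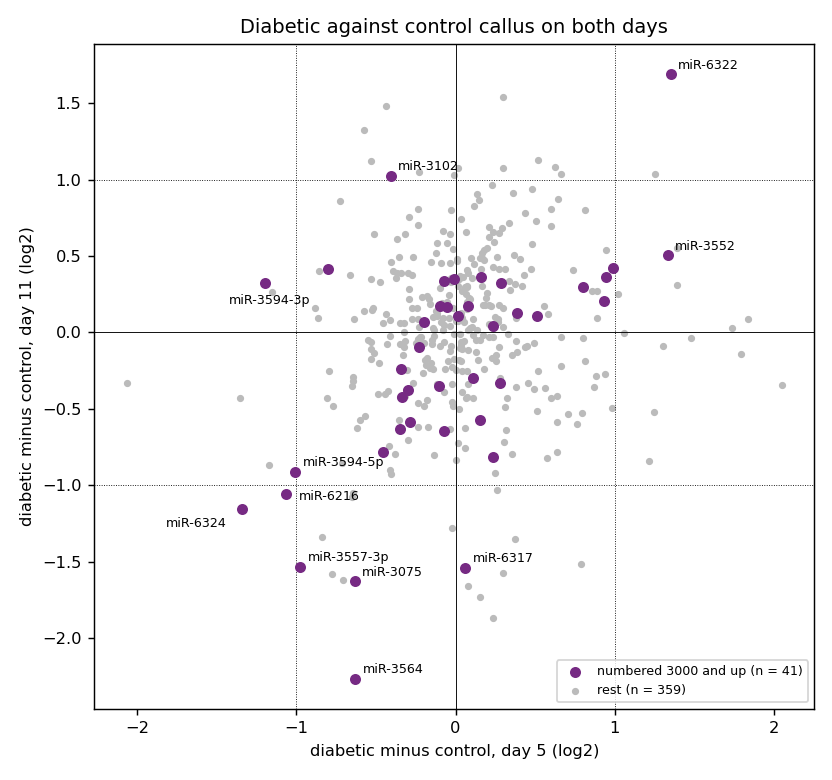
Log2 difference of diabetic minus control callus on day 5 (horizontal) and day 11 (vertical) for the miRNAs detected on all 4 arrays, 41 numbered 3000 and up and 359 others. Dotted lines mark 2-fold. miR-6216 and miR-6324 lie below -1 on both axes and miR-6322 above 1 on both.

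Levels of miRNAs known as markers of cell types differed in the same comparisons. Of 6 cartilage miRNAs (both arms of miR-140, miR-455 and miR-675), all 6 were lower in diabetic callus on day 11, with a median log2 difference of -1.46 and summed levels of 5825 in diabetic day 11, 18426 in control day 11, 2756 in diabetic day 5 and 2512 in control day 5 callus. On day 5, 4 of 4 leukocyte miRNAs were lower in diabetic callus (5092 in diabetic and 8383 in control callus, summed), and both erythroid miRNAs were higher (1445 in diabetic and 512 in control callus). On day 11 the leukocyte sum was 1479 in diabetic and 1230 in control callus. Skeletal muscle miRNAs summed to 9998.7 in diabetic day 11, 9412 in control day 11, 29676 in diabetic day 5 and 28356 in control day 5 callus. All markers of the lists were detected on every array, the mesenchymal and endothelial ones included. In bulk tissue fewer cells of a type and less RNA per cell cannot be told apart, and the part of these markers in the differences of the late-numbered miRNAs was not tested.

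Between day 11 and day 5 in control callus, 49 of the 102 were detected on both arrays. On day 11, 4 were at least 2-fold higher and 2 at least 2-fold lower, where 6.95% of all miRNAs were higher and 6.95% lower. The median of the 49 was 0.19, against 0.03 over all. Of the 49, 34 were above 0, against 235 of all 446 detected on both arrays. miR-6332, in the span of Rere (a nuclear receptor co-regulator), was the brightest: 2193 in diabetic day 11, 2009 in control day 11, 1210 in diabetic day 5 and 924 in control day 5 callus. Both day 11 pools were above both day 5 pools, by 1.12 ± 0.10 in control and 0.86 ± 0.12 in diabetic callus. miR-6318 showed the same order, with 170 in diabetic day 11, 158 in control day 11, 86.1 in diabetic day 5 and 60.4 in control day 5 callus (log2 1.39 ± 0.16 in control and 0.98 ± 0.16 in diabetic callus).

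miR-3065-3p, opposite the Mir338 hairpin in Aatk, a gene best known from nervous tissue, had 167 in diabetic day 11, 125 in control day 11, 85.8 in diabetic day 5 and 43.3 in control day 5 callus. It was higher on day 11 by 1.52 ± 0.21 in control and 0.96 ± 0.16 in diabetic callus. Its partner miR-338-5p differed by 0.01 ± 0.12 in control and 0.43 ± 0.15 in diabetic callus. miR-3593-3p had 781 in diabetic day 11, 635.3 in control day 11, 621 in diabetic day 5 and 357 in control day 5 callus, and its difference of 0.83 ± 0.10 in control callus was the nearest one short of 2-fold.

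The other 2-fold differences in control callus were at low levels. miR-3556b, the mirror of miR-29c-3p, had 30.3 in control day 11, 19.3 in diabetic day 5 and 12.1 in control day 5 callus and was not detected in diabetic day 11 callus. On day 11 it was higher in control callus by 1.32 ± 0.66, where miR-29c-3p was lower (-0.84 ± 0.10). miR-3594-3p (-1.12 ± 0.22) and miR-3099 (-1.12 ± 0.72) were lower, miR-3099 with 12.5 in control day 11 against 27.2 in control day 5 callus. miR-3588, the mirror of miR-125b-5p, was at least 4.25-fold higher on day 11, where 9.73% of the miRNAs detected on 1 of the 2 arrays had such a bound.

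Between day 11 and day 5 in diabetic callus, 46 were detected on both arrays, with 2 at least 2-fold higher and 2 at least 2-fold lower on day 11. Over all miRNAs 3.83% were higher and 8.11% lower, and the medians were 0.05 for the members and 0.01 over all. These counts also depended on the processing. With quantile normalisation 6 were higher and 2 lower, with the local background 1 and 0, and with the authors' deposited values 1 and 4. The median of the authors' values was -0.25 for the members and -0.29 over all. miR-3546, which lies opposite Mir208a, the miRNA of the cardiac myosin gene Myh6, had 56.8 in diabetic day 11, 42.6 in control day 11, 14.1 in diabetic day 5 and 24.5 in control day 5 callus. It was higher on day 11 by 2.01 ± 0.61 in diabetic and 0.80 ± 0.37 in control callus. Its partner miR-208a-5p was higher as well, by 1.90 ± 0.17 in diabetic and 1.56 ± 0.14 in control callus.

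The other diabetic differences with time came from values given above. miR-3102 was higher on day 11 (1.12 ± 0.35), and miR-6317 (-1.31 ± 0.37) and miR-3564 (-1.67 ± 0.68) were lower, each with the diabetic day 11 pool standing apart from the other 3. Bounds of at least 2-fold higher on day 11 (5.19% of the miRNAs detected on 1 of the 2 arrays) belonged to miR-3587, miR-6334 (28.5 in diabetic day 11 callus) and miR-3596a. Bounds of at least 2-fold lower (13.6%) belonged to miR-3566 (at least 2.68-fold), miR-3574 (at least 2.22-fold) and miR-3575 (at least 2.10-fold). The mirror partner of miR-3574, the hypoxia miRNA miR-210-3p, had 263 in diabetic day 11 and 92.8 in diabetic day 5 callus.

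**Figure D5:**
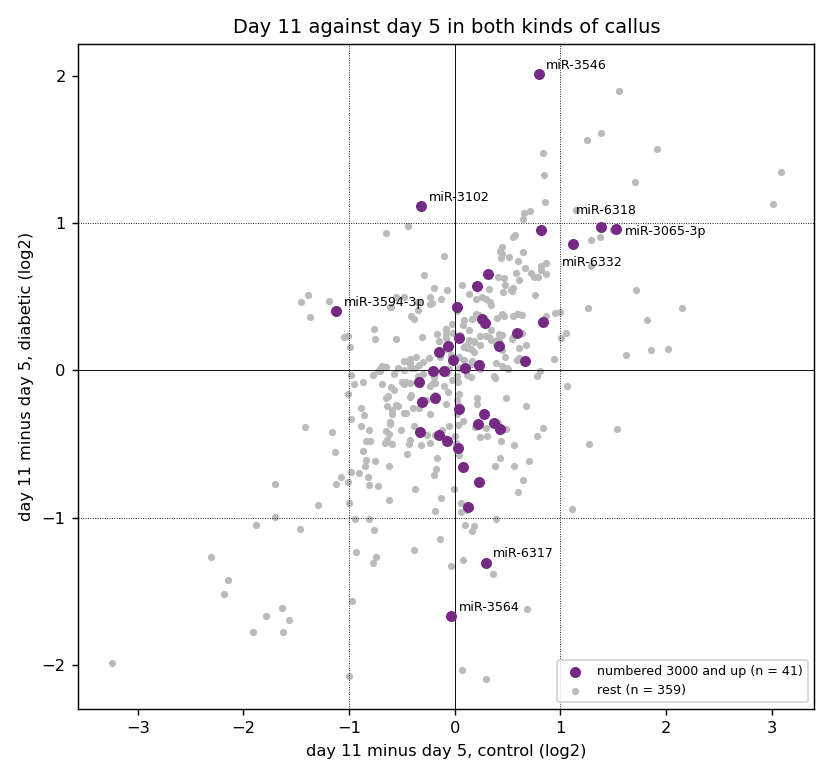
Log2 difference of day 11 minus day 5 in control callus (horizontal) and diabetic callus (vertical) for the miRNAs detected on all 4 arrays, 41 numbered 3000 and up and 359 others. Dotted lines mark 2-fold. miR-6318, miR-3065-3p and miR-6332 lie to the right of 1 in control callus and between 0.86 and 0.98 in diabetic callus.

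The 2 time differences also share no array. Among the 41 members, 26 had the same sign in diabetic and control callus, 17 higher and 9 lower on day 11, with r = 0.40 (rho 0.34). Among the 359 others 247 had the same sign and r was 0.56 (rho 0.51). In the same comparisons, skeletal muscle markers were lower on day 11 (5 of 5 in diabetic and 5 of 5 in control callus) and cartilage markers higher (5 of 6 in diabetic and 6 of 6 in control callus). Their part in the members' differences was not tested.

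Both arms of 16 member hairpins were on the array, and for 8 of these at least 1 arm was detected on all 4 arrays. Both arms were detected on all 4 for miR-3068, miR-3573, miR-3593 and miR-3594. The 5p arm of miR-3068 had 38.3 in diabetic day 11, 51.3 in control day 11, 51.2 in diabetic day 5 and 64.6 in control day 5 callus. The 5p arm of miR-3573 had 54.6, 71.0, 54.0 and 66.3 on the same arrays in that order, with both diabetic pools below both control pools. The 5p arm of miR-3593 had 19.8 in diabetic day 11, 15.4 in control day 11, 25.5 in diabetic day 5 and 13.2 in control day 5 callus.

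In all 4 of these hairpins both arms had the same sign of difference between diabetic and control callus on day 5. Both reached 2-fold only for miR-3594. With the local background the 3p and the 5p arm of miR-3068 had opposite signs on day 5, at -0.22 and 0.07. On day 11 the arms of miR-3593 were both higher in diabetic callus, by 0.30 ± 0.11 for the 3p and 0.36 ± 0.70 for the 5p arm. The arms of miR-3068, miR-3573 and miR-3594 then had opposite signs. The 3p and the 5p arm stood at 0.07 ± 0.11 and -0.42 ± 0.30 for miR-3068. They stood at 0.18 ± 0.11 and -0.38 ± 0.22 for miR-3573, and 0.33 ± 0.26 and -0.91 ± 0.14 for miR-3594. With the local background both arms had the same sign in each of these hairpins, at 1.26 and 0.33, 1.46 and 0.91, and -0.28 and -0.13. The arms of miR-3593 were both lower there, at -0.04 and -0.18. For miR-3065, miR-3557, miR-3558 and miR-3584 a single arm was detected on all 4 arrays. The second arm was detected on the diabetic day 5 array alone for the first 3, at 11.4 to 19.2, and on both diabetic arrays for miR-3584-3p, at 21.3 on day 11 and 24.6 on day 5. miR-3558-5p had 34.4 in diabetic day 11, 29.9 in control day 11, 44.2 in diabetic day 5 and 23.1 in control day 5 callus.

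Few members shared a seed with another miRNA of the array. The seed shared by miR-3573-5p with miR-423-5p is shown because both were lower in diabetic callus on both days on the blank-corrected scale.
miR-3573-5p: uGAGGGGCagugauagaaagga
miR-423-5p: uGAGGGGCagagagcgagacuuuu
miR-423-5p had 100.5 in diabetic day 11, 150 in control day 11, 87.3 in diabetic day 5 and 132 in control day 5 callus. Its log2 differences between diabetic and control callus were -0.58 on day 11 and -0.60 on day 5, beside -0.38 ± 0.22 and -0.30 ± 0.22 for miR-3573-5p. None of these reached 2-fold. With the local background miR-3573-5p was higher in diabetic callus on day 11 (0.91) and lower on day 5 (-0.19). The other shared seeds were those of miR-3065-5p with miR-7a-1-3p and of miR-3596d with let-7b-3p, let-7f-1-3p and miR-98-3p, and both members were near the limit.

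Of the 24 differences of at least 2-fold between 2 detected values, 5 were also at least 2-fold when the spot's local background was used with normexp and quantile normalisation, and all 24 kept their sign. The 5 were the lower miR-6216 (-1.38), miR-3075 (-1.22) and miR-3557-3p (-1.17) in diabetic callus on day 11 and the higher miR-6332 (1.32) and miR-6318 (1.05) in control callus on day 11 against day 5. Over all miRNAs, 8 of the 21 lower in diabetic callus on day 11 stayed so. Of the 31 higher in control callus on day 11 against day 5, 10 stayed so. Most calls were thus lost over the whole array too. The part of the normexp offset of 50 in this was not tested. The local background followed the spot, with correlations of log2 values of 0.89, 0.95, 0.76 and 0.81 on the diabetic day 11, control day 11, diabetic day 5 and control day 5 arrays, and it moved bright probes too. With it miR-3573-3p and miR-3068-3p, steady on the blank-corrected scale, differed between diabetic and control callus on day 11 by 1.46 and 1.26.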

How the data were processed

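Tissue of 5 animals per group was pooled and labelled with Cy5, per the labels' protocols. The deposited files hold 1 median intensity per spot and 1 local background intensity, joined from scans at 3 gains, per the file headers. Each array carried 727 miRNA probes of 1 spot each, and 0 of these spots were marked not usable. The authors' deposited table of intensities equals the spot minus the trimmed blank mean times a factor per array (median 25), and how it was made is not given in the sources used here. From the spots, the mean of 1354 of 1504 blank spots (highest and lowest 5% left out) was subtracted. Each array was then scaled to a median of 100 over the 400 miRNAs detected on all 4 arrays. Detection needed the blank mean plus 2 SD, and a call a log2 difference of at least 1 between 2 detected values. Blanks were preferred to the local background because the local background followed the spot. Alternatives were normexp (limma 3.58.1, R 4.3.3, offset 50) with quantile normalisation, quantile normalisation of blank-corrected values, the authors' values, a limit of 3 SD and, chosen after seeing the data, the spots named No Probe as background. The steps were tested on simulated data, scored only for miRNAs with a simulated control level of at least 100. On each array 38 to 53 of the detected members were below 100, a range this did not cover. With 1 array per group the number of arrays limits the precision, and no test was made. Members were named by a rule covering the 8 brightest, all 2-fold differences and bounds, both arms of hairpins, mirror miRNAs and shared seeds. The members and lists were chosen with earlier results of these data known. Sequences were matched by name to RefSeq (GRCr8) for 92 of 102 members, and miR-3072, miR-3568, miR-3577, miR-3586-3p, miR-3586-5p, miR-3593-5p, miR-6318, miR-6320, miR-6323 and miR-6334 are named only. Python 3.11.15 was used for the rest.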

Additional observations from a re-analysis of the deposited data

Results flagged for a closer look

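In 3 miRNAs the difference between diabetic and control callus reached 2-fold on 1 day and had the opposite sign on the other. In each of them the 2 differences were at least 2-fold apart. The difference on day 11 less that on day 5 was 1.53 on the log2 scale for miR-3594-3p, -1.60 for miR-6317 and 1.43 for miR-3102. The values of opposite sign were small beside their technical errors. They were 0.33 ± 0.26 on day 11 for miR-3594-3p, and on day 5 0.06 ± 0.20 for miR-6317 and -0.41 ± 0.37 for miR-3102. With the local background miR-3594-3p had the same sign on both days, at -0.50 on day 5 and -0.28 on day 11. miR-6317 and miR-3102 kept opposite signs. With 1 pool per group the contrasts between the days were not tested.

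Signal was also present in spots outside the miRNA probes. Of 675 spots named No Probe, 121 on the diabetic day 11 array, 150 on the control day 11 array, 138 on the diabetic day 5 array and 93 on the control day 5 array were above the limit set by the blank spots.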

How the results depend on the processing

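With normexp on the local background, 0 members were at least 2-fold higher and 0 lower in diabetic callus on day 5, and 1 was higher and 0 lower on day 11 against day 5 in diabetic callus. With quantile normalisation of blank-corrected values, 1 was higher in diabetic callus on each day and 6 were higher on day 11 in diabetic callus. With the authors' deposited values, the median of the members was 0.23 for diabetic minus control on day 5, with 6 higher and 1 lower, 1 was higher in diabetic callus on day 11, and day 11 minus day 5 in diabetic callus had a median of -0.25 with 1 higher and 4 lower. With the limit at 3 SD, 0 were higher in diabetic callus on day 5, 1 was lower on day 11 in control callus, and 1 was higher and 1 lower on day 11 in diabetic callus. With the No Probe spots, 1 was lower on day 11 in control callus. Of the 24 differences of at least 2-fold, 5 stayed so with the local background, 22 with quantile normalisation, and 19 with the authors' values, and all 24 kept their sign under these. At 3 SD 7 of the 24 could no longer be compared, and with the No Probe spots 6. The values of the other 17 move at 3 SD only through the rescaling, so that they stay past 2-fold says little. Members detected were 45, 48, 52 and 47 at 3 SD and 46, 48, 52 and 50 with the No Probe spots, on the diabetic day 11, control day 11, diabetic day 5 and control day 5 arrays. The causes were not tested beyond the smaller number of miRNAs compared. No paired analysis was possible because each group has 1 pooled array and the labels give no replicate numbers. Signal over background limits the differences of miRNAs below a level of about 50.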
